A study of Mus musculus with 4 samples.

Results

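Low-depth low-mitochondrial barcodes were the cell barcodes that fell short on depth without carrying a high share of mitochondrial RNA. In a mouse embryonic stem cell (mESC) single-cell RNA-seq dataset of 41142 barcodes, 2623 barcodes (6.38%, exact 95% interval 6.14% to 6.62%) met this description. A barcode was a member when its count of unique molecular identifiers (UMIs, each standing for 1 captured RNA molecule) or its number of detected genes lay below the mean of its library minus 1 SD, while genes of the mitochondrial genome (symbols starting with mt-) made up at most 10% of its UMIs. They were compared in each library with 31989 kept cells, which were at or above both limits with a mitochondrial share of at most 10%. The other barcodes were 5734 of low depth and 796 of good depth with a mitochondrial share above 10%. UMIs, detected genes and mitochondrial share chose the members, so their values for these measures are a description only.

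The study profiled male E14tg2a.4 mESC (WT) and an Srrm2 heterozygous knockout (Srrm2 hKO) made from the same line, 2 samples each, by droplet sequencing of transcript 3′ ends. Srrm2 hKO is a single gene-trap clone, CG0630, with 1 truncated copy of Srrm2, a scaffold protein of the splicing machinery. Per the labels, both lines were grown in serum-free ESGRO medium with LIF for 24 h or 72 h before collection, whereas the single-cell methods of the study give another length of growth in regular conditions. The 4 libraries carry numbers that no label ties to a sample, so WT and Srrm2 hKO were not compared and libraries are described by number.

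In droplet sequencing, each barcode stands for a droplet that may hold a whole cell, part of a cell or RNA released into the suspension. Most messenger RNA, such as that of ribosomal proteins and glycolytic enzymes, lies in the cytoplasm, whereas Malat1 and Neat1 are long noncoding RNAs that stay in the nucleus, and ribosomal RNA is made in the nucleolus and exported within ribosomes. Mitochondrial transcripts lie inside mitochondria and are often used to judge whether a cell was intact. What each member droplet held was not tested: droplets that were not called as cells, and counts of intronic reads, were not analysed here.

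Members numbered 389, 781, 613 and 840 in libraries 1 to 4, or 4.08%, 6.65%, 6.32% and 8.26% of their barcodes. The UMI limits were 8261, 6374, 7238 and 5679, and the gene limits 2458, 2124, 2351 and 2039. Of all members, 2394 fell below both limits, 190 below the UMI limit alone and 39 below the gene limit alone. They ranged from 429 to 13905 UMIs with a median of 1582, against a median of 20337 in kept cells. Together they held 0.910% of all UMIs.

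Depth differed between the libraries. Libraries 1 and 3 had member medians of 3427 and 3516 UMIs, and libraries 2 and 4 medians of 1235 and 1357. Members with 4000 UMIs or more numbered 184 of 389 and 271 of 613 in libraries 1 and 3, but 114 of 781 and 120 of 840 in libraries 2 and 4. At the other end, 830 members had under 1000 UMIs, and 311 and 273 of them came from libraries 2 and 4. Every summed value below therefore mixes depths in different proportions, and depth classes are given beside the main results.

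**Figure D1:**
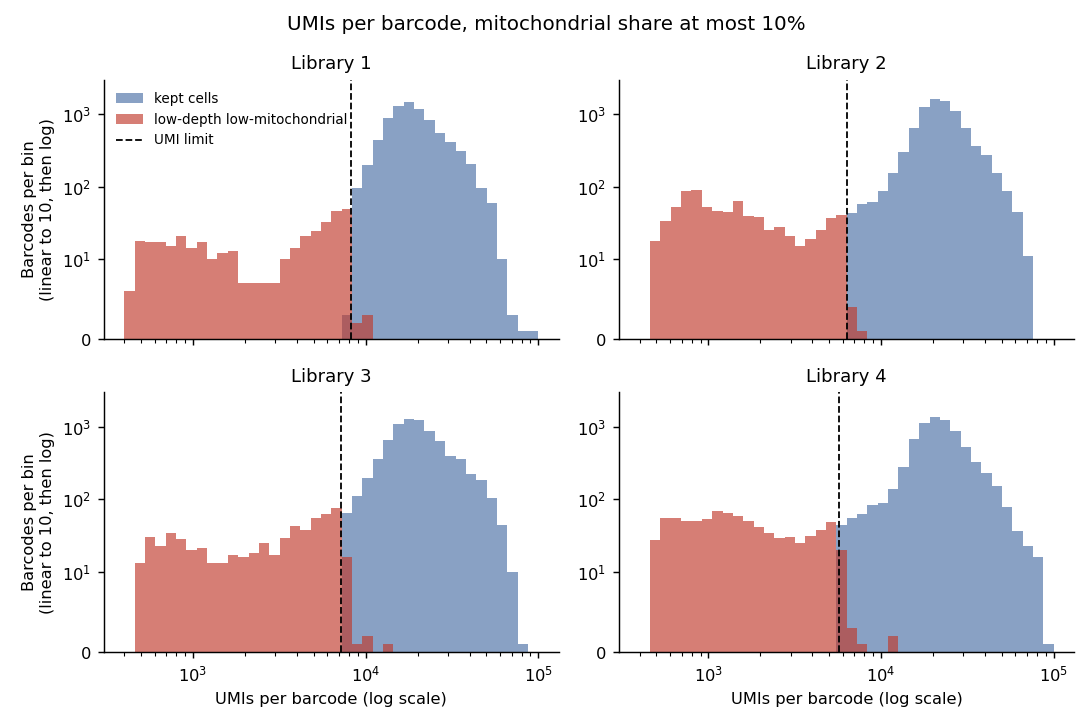
UMIs per barcode (log axis) against barcodes per bin (linear to 10, then log) for low-depth low-mitochondrial barcodes and kept cells of each library, with the UMI limit dashed. The member medians are 3427, 1235, 3516 and 1357 UMIs in libraries 1 to 4, and members reach down to 429 UMIs.

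Few barcodes lay next to the limit. Within 5% of the UMI limit, 22, 13, 33 and 17 members lay below it and 22, 13, 14 and 15 kept cells above it. Malat1 took 0.558%, 0.875%, 0.800% and 0.905% of the UMIs just below and 0.717%, 0.660%, 0.940% and 1.42% just above. Ribosomal proteins took 30.1%, 23.3%, 28.0% and 26.5% just below and 30.5%, 22.7%, 28.3% and 21.4% just above. Neither side was higher in all libraries for either measure, and library 4 differed most.

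Very low mitochondrial shares were common among members. The median mitochondrial share was 4.30%, 3.58%, 4.04% and 2.10% in members of libraries 1 to 4 and 5.40%, 4.10%, 4.51% and 3.51% in kept cells. A share under 1% was found in 96, 168, 128 and 262 members (24.7%, 21.5%, 20.9% and 31.2%), and in 44, 89, 58 and 168 kept cells, at most 2.25% of them in any library. The rule set an upper bound on this share and no lower one. These 654 members had a median of 1050 UMIs.

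**Figure D2:**
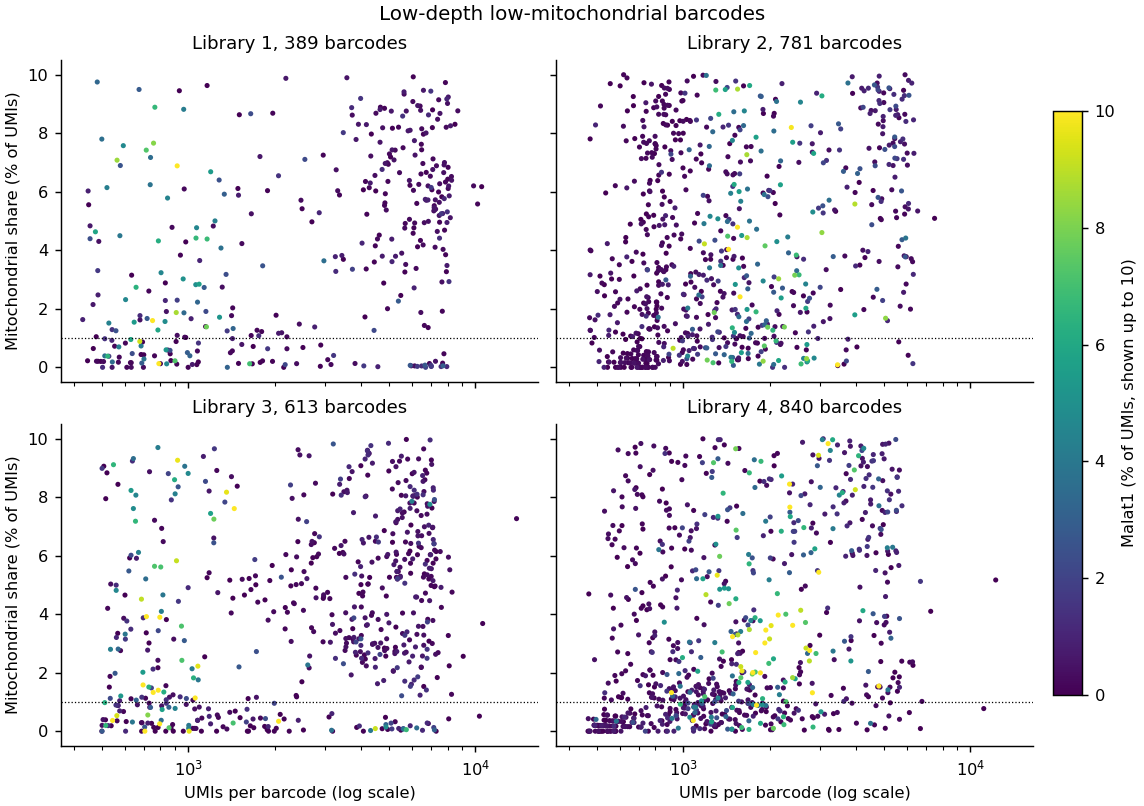
Each point is 1 low-depth low-mitochondrial barcode, placed by its UMIs (log axis) and its mitochondrial share, with colour for the Malat1 share of its UMIs (values over 10% shown at 10%), and a dotted line at 1% mitochondrial share. Points under the line number 96, 168, 128 and 262 in libraries 1 to 4, and lighter points hold more Malat1.

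Few barcodes were shared between libraries. The 16-base barcode of 22 members (0.839%) also occurred in another library, 13 of them as a kept cell there, against 257 kept cells (0.803%). No member and no kept cell lay 1 base away from any barcode of its own library, so this measure does not set members apart.

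Across 6021 genes with enough counts in every library, ribosomal and noncoding RNA led the genes that were higher in members when these were ranked by their smallest ratio over the libraries. A gene was called when its counts per 1000000 UMIs (CPM), summed over members, were at least 1.5-fold above or below those summed over kept cells in all 4 libraries. By this rule 62 genes (1.03% of those tested) were higher in members and 0 (0%) were lower. The level in members entered the count limit, so some of the higher genes were tested only because they were high there. Without library 1 the rule gave 141 higher genes, and without library 3 it gave 151. Fewer libraries make the rule easier to meet, and no share of tested genes is given for these counts. No p was computed, because the members were chosen by their own counts and the libraries are tied to no sample. When a gene was instead called if the exact 95% interval of its ratio was clear of 1 in the same direction in every library, 238 (3.95%) were higher and 189 (3.14%) lower. These intervals cover counting error only. They are narrower for abundant genes, so shares called by the interval are not matched for abundance between a list and all tested genes. The median log2 ratio over all tested genes was 0.05, 0.06, -0.01 and 0.05 in libraries 1 to 4.

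Long noncoding genes made up 10 of the 62 higher genes (16.1%) and 1.25% of all tested genes. The remaining 52 were protein-coding. The long noncoding genes include Gm26917, Gm42418 and AY036118, annotations that collect ribosomal RNA and are not independent, as described next. Some of the 62 were tested only through their level in members, so these shares are a description only. The higher genes were also longer, with a median of 7624 exonic bases against 4426 over all tested genes and 2975 over the 189 genes lower by the interval. Median gene spans were 32.9 kb, 22.7 kb and 10.4 kb for these sets.

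Genes that collect ribosomal RNA came first. Gm26917, Gm42418 and AY036118 are noncoding annotations next to each other on chromosome 17 (GRCm38, 39843013 to 39848788), and RefSeq lists Gm42418 under the name Rn18s-rs5, a pseudogene related to the 18S ribosomal RNA gene. AY036118 lies on the opposite strand within Gm42418, and reads from other ribosomal RNA copies could be counted at any of them, so the 3 genes are not independent. The assay primes on runs of A, so the 30 bases around the longest such run are shown for Gm42418 and for Malat1, the leading nuclear RNA described below. Capitals mark the run, and both sequences are from the GENCODE transcripts.
Gm42418 (chr17:39847155-39847184, + strand, exon): gcgtttactttgAAAAAAttagagtgttca
Malat1 (chr19:5795979-5796008, - strand, exon): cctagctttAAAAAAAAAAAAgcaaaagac
Malat1 holds 12 A in a row near its 3′ end, as long a run as 19.4% of tested genes have in a transcript, whereas Gm42418 holds 6, below the median of 7. Whether reads began at these runs was not tested.

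Gm42418 stood at 3026, 10365, 3025 and 11782 CPM in members of libraries 1 to 4 and at 678, 1277, 604 and 1308 CPM in kept cells. Its log2 ratios were 2.16, 3.02, 2.32 and 3.17. Members of every library thus lay above every library's kept cells, and libraries 2 and 4 were highest in both classes. Gm26917 showed log2 ratios of 3.24, 3.69, 2.83 and 3.30, and AY036118 of 2.03, 3.55, 2.61 and 3.44. Lars2, which encodes the mitochondrial leucyl-tRNA synthetase and contains a sequence close to ribosomal RNA, stood at 59.1, 188, 57.7 and 208 CPM against 19.6, 29.3, 20.6 and 33.1 CPM. The median member held 0.342%, 1.37%, 0.340% and 1.76% of its UMIs in the rRNA-like genes, against 0.0844%, 0.159%, 0.0784% and 0.160% in kept cells, so the median barcode was higher too. Summed over the 5 genes listed as rRNA-like, the log2 ratio was 2.25, 3.09, 2.30 and 3.15, and 4 of 5 genes were called higher (against 1.03% of all tested genes). Cmss1, the fifth, had log2 ratios from -0.41 to 0.03.

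The level was highest in the shallowest members. Below 1000 UMIs the rRNA-like genes reached 27830, 27148, 24235 and 34013 CPM, and from 1000 to 2000 UMIs 15986, 20930, 10355 and 21295 CPM. Members with 4000 UMIs or more stood at 1975, 5175, 2299 and 5995 CPM, still above the 887, 1658, 803 and 1668 CPM of kept cells. Low-depth barcodes with more than 10% mitochondrial UMIs lay at 5004, 9120, 4527 and 11251 CPM.

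Nuclear long noncoding RNAs were higher as well. Malat1, a nuclear speckle RNA, stood at 7185, 14907, 8216 and 17350 CPM in members and at 4088, 4209, 4229 and 5157 CPM in kept cells. The log2 ratios were 0.81, 1.82, 0.96 and 1.75, so the excess was greater in libraries 2 and 4. The median barcode differed little, with 0.414%, 0.323%, 0.408% and 0.442% Malat1 in members and 0.353%, 0.359%, 0.348% and 0.420% in kept cells, and in library 2 it lay below. Of the UMIs of all nuclear long noncoding RNAs in members, 50% were held by 66 of 389, 76 of 781, 83 of 613 and 75 of 840 barcodes. Neat1, the scaffold RNA of paraspeckles, had log2 ratios of 0.93, 1.71, 1.24 and 1.60, and Tug1 of 0.96, 1.33, 1.08 and 1.47. Firre, an X-linked RNA that stays near its own locus, had 0.85, 1.48, 0.76 and 1.70.

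Of the 10 RNAs listed, 8 had enough counts, 4 (Malat1, Neat1, Tug1 and Firre) were called higher (against 1.03% of all tested genes) and 7 were higher by the interval (87.5%, against 3.95%). Those 7 included Kcnq1ot1 (0.19, 1.14, 0.45 and 1.12), the antisense RNA of an imprinted domain, and Rian (0.22, 1.35, 0.42 and 1.13), from the imprinted Dlk1-Dio3 domain. Tug1 and Kcnq1ot1 are annotated as antisense RNAs.

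**Figure D3:**
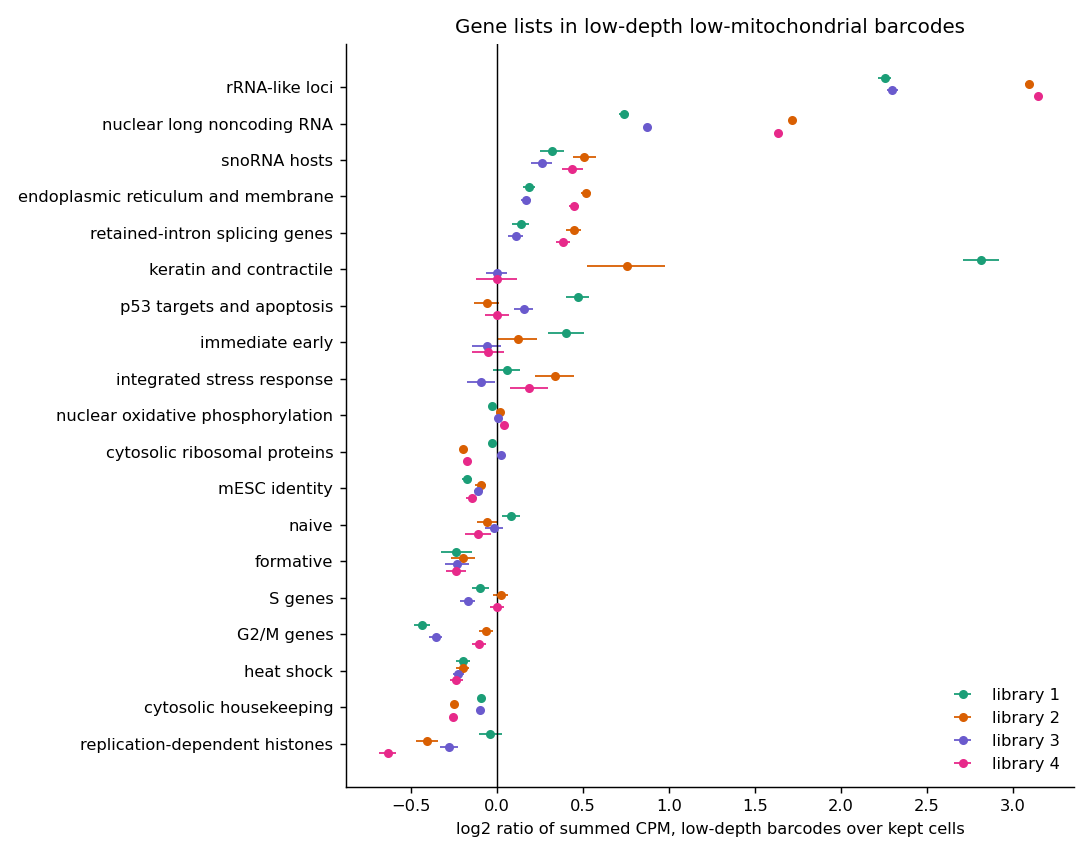
log2 ratio of summed CPM in low-depth low-mitochondrial barcodes over kept cells for 19 gene lists, 1 point per library with its exact 95% counting interval and a line at 0. The rRNA-like genes (2.25, 3.09, 2.30 and 3.15) and the nuclear long noncoding RNAs (0.74, 1.71, 0.87 and 1.64) lie right of the line in all libraries, and cytosolic housekeeping genes (-0.09, -0.25, -0.10 and -0.26) left of it.

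The depth at which Malat1 was high depended on the library. Below 1000 UMIs, members of libraries 1 and 3 stood at 27996 and 28788 CPM, but those of libraries 2 and 4 at 3167 and 6229 CPM, of which library 2 lay below its own kept cells. From 2000 to 4000 UMIs the order was turned round, with 25542 and 25779 CPM in libraries 2 and 4 and 7417 and 6444 CPM in libraries 1 and 3. Between 1000 and 2000 UMIs all libraries were high, at 16542, 21586, 14993 and 23679 CPM. At 4000 UMIs or more they stood at 5228, 10012, 6808 and 10574 CPM. Low-depth barcodes with more than 10% mitochondrial UMIs stood at 13055, 13909, 12944 and 18727 CPM. The rRNA-like genes, by contrast, were lower in each deeper class in every library.

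To compare single barcodes at equal depth, UMIs of each barcode were drawn down at random to 1000, which left out 105, 311, 141 and 273 members below that depth and no kept cell. At least 20 Malat1 UMIs of 1000 were found in 10.9%, 33.4%, 9.32% and 30.3% of members of libraries 1 to 4. The same held for 0.394%, 0.517%, 0.786% and 1.78% of kept cells, a lower share in every library. Members with no Malat1 UMI made up 12.3%, 7.66%, 15.7% and 7.94%, against 8.70%, 8.26%, 9.72% and 7.49% of kept cells. The exact intervals of this share overlapped those of kept cells in libraries 1, 2 and 4. At 500 UMIs they overlapped in every library and at 2000 UMIs in libraries 1 and 2. These intervals take each barcode as independent, so they describe the shares and test no difference. When barcodes were thinned to 500 UMIs, which left out 17, 11, 0 and 14 members, a Malat1 share of at least 2% was found in 20.7%, 21.7%, 18.9% and 23.5% of members and in 0.641%, 0.928%, 1.28% and 2.25% of kept cells. The excess of Malat1-rich members thus held at both depths, whereas the contrast between libraries seen at 1000 UMIs was smaller at 500.

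**Figure D4:**
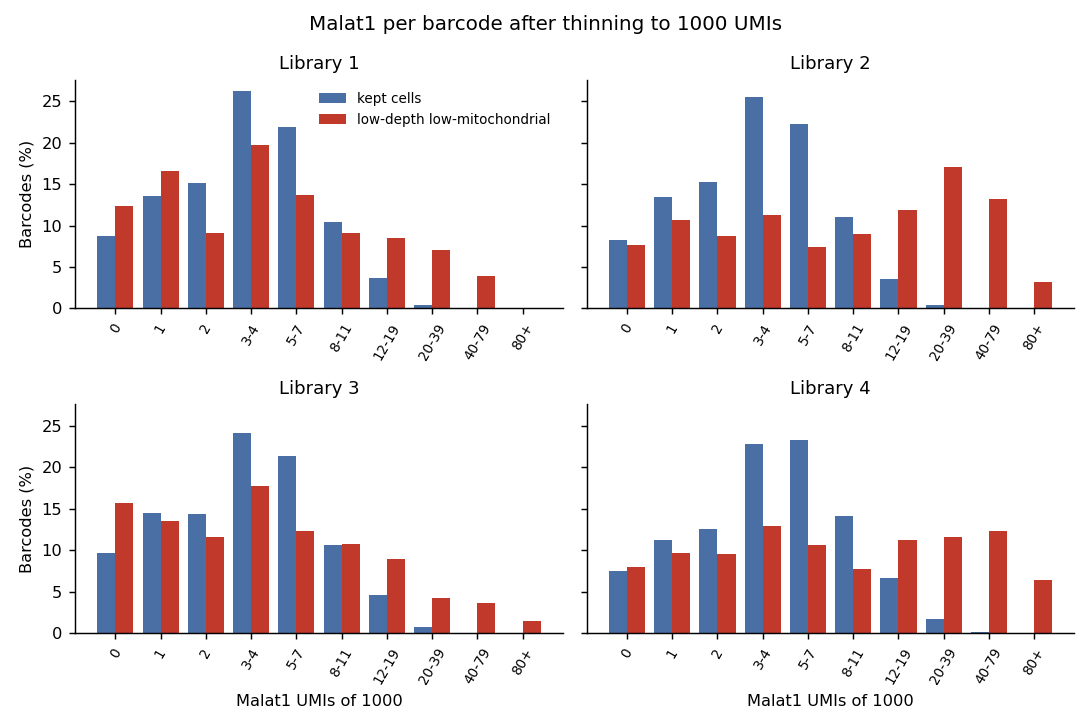
Percentage of barcodes in each class of Malat1 UMIs after thinning every barcode to 1000 UMIs, for low-depth low-mitochondrial barcodes and kept cells of each library. Members with 20 or more Malat1 UMIs make up 10.9%, 33.4%, 9.32% and 30.3% in libraries 1 to 4, against at most 1.78% of kept cells.

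Malat1-rich members had a different make-up in other genes too. In those with 20 or more Malat1 UMIs of 1000, cytosolic ribosomal proteins took 22.6%, 17.3%, 22.9% and 16.4% of UMIs, against 29.1%, 24.4%, 28.5% and 26.1% in members with 1 to 19. Cytosolic housekeeping genes took 3.66%, 3.44%, 4.10% and 3.16% against 5.44%, 5.24%, 5.67% and 5.22%. Retained-intron splicing genes, whose transcripts are partly held in the nucleus, took 0.465%, 0.439%, 0.327% and 0.475% against 0.209%, 0.248%, 0.189% and 0.224%. These barcodes thus held less of the abundant cytoplasmic messages and more of the splicing genes in every library. The rRNA-like genes were higher in them too, at 2.78%, 1.86%, 1.40% and 2.19% against 0.295%, 1.45%, 0.335% and 1.42%. Before thinning they were shallower, with median UMIs of 1335, 1869, 3312.5 and 1810.5 against 5706, 2071, 4540.5 and 2021. The part of depth in these contrasts was not tested.

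The number of genes of Malat1-rich members was higher at the same depth, with medians of 654, 687, 650.5 and 689.5 against 597, 630, 598 and 620. The percentage of barcodes under 1% mitochondrial UMIs did not follow Malat1 in 1 direction. It was 19.4%, 18.5%, 43.2% and 19.2% in the Malat1-rich members and 15.6%, 12.6%, 10.2% and 25.4% in the others with Malat1. Members with no Malat1 had more ribosomal protein UMIs than either, at 31.2%, 27.9%, 31.1% and 30.5%. Malat1-rich kept cells, numbering 32, 44, 62 and 133, had 24.5% to 27.6% ribosomal protein UMIs, in each library above the Malat1-rich members.

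As sums, abundant cytoplasmic messages tended to be slightly lower in members. The 25 cytosolic housekeeping genes, among them translation factors, glycolytic enzymes, actins and tubulins, had log2 ratios of -0.09, -0.25, -0.10 and -0.26. None was called at 1.5-fold, and 16 of 25 were lower by the interval, against 3.14% of all tested genes. Small ratios pass this rule in genes as abundant as these. Gapdh, a glycolytic enzyme, stood at 2729, 1626, 2144 and 1356 CPM in members and 3260, 2311, 2774 and 1975 CPM in kept cells, and was lower in each library. Eef1a1, the gene of this list with most counts, had log2 ratios of -0.01, -0.32, -0.07 and -0.27. Actb was higher in libraries 1 and 3 (0.16, -0.01, 0.43 and -0.13). Cytosolic ribosomal protein genes had log2 ratios of -0.03, -0.20, 0.02 and -0.18, with 14 of 81 lower (17.3%, against 3.14% of all tested genes) and 1 higher by the interval. Nuclear genes of oxidative phosphorylation lay near 0, with 3 of 72 higher and 3 lower by the interval (4.17% each, near the 3.95% and 3.14% of all tested genes).

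No gene was lower by 1.5-fold in all libraries, so the lowest tested genes are named by the same ranking without a call. Among them were Tpx2, a spindle assembly factor (log2 ratios -0.47, -0.58, -0.56 and -0.64), Ube2c, an enzyme of the anaphase-promoting complex (-0.70, -0.48, -0.47 and -0.43), and Nusap1 and Bub1b, with ratios from -0.74 to -0.37. The nucleolar proteins Nolc1 (-0.38, -0.58, -0.39 and -0.71) and Ftsj3 (-0.36, -0.35, -0.45 and -0.42) were others. L1td1, an RNA-binding protein of pluripotent cells, had -0.47, -0.37, -0.52 and -0.60. Each of these genes was lower by the interval.

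The 14 genes of G2/M phase summed to log2 ratios of -0.44, -0.07, -0.36 and -0.11, and 2 of 14 were lower by the interval (14.3%, against 3.14% of all tested genes). In members under 1000 UMIs they stood at 3667, 3241, 2836 and 3007 CPM, against 3268, 3416, 3073 and 3090 CPM in kept cells, so library 1 lay above and the other three below. Members with 4000 UMIs or more had 2287, 3209, 2382 and 2596 CPM, below kept cells in every library. S-phase genes had log2 ratios of -0.10, 0.02, -0.17 and 0.00. Replication-dependent histone genes had -0.04, -0.41, -0.28 and -0.64, and of 10 tested, 2 were lower by the interval (against 3.14% of all tested genes), Hist1h1b and Hist1h2ap (-0.28, -0.75, -0.50 and -0.91). The median ratio of the 10 was 0.12, -0.18, 0.05 and -0.32, so the middle of the list was not lower in libraries 1 and 3.

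Man2b1, a lysosomal mannosidase, stood at 57.8, 57.6, 47.5 and 42.2 CPM in members and 25.8, 26.5, 21.4 and 21.6 CPM in kept cells. It had the highest ratios of any protein-coding gene outside the rRNA-like list when genes were ranked by their smallest log2 ratio (1.16, 1.12, 1.15 and 0.96). Tfrc, the transferrin receptor, had log2 ratios of 0.86, 1.02, 0.66 and 1.11. It was the only gene called among 27 of the endoplasmic reticulum and membrane list (3.70%, against 1.03% of all tested genes), of which 7 were higher by the interval (25.9%, against 3.95%). As a sum this list had log2 ratios of 0.19, 0.52, 0.17 and 0.45.

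Splicing genes with retained introns had summed log2 ratios of 0.14, 0.45, 0.11 and 0.38, with 0 of 11 called and 5 higher by the interval (45.5%, against 3.95% of all tested genes). Clk1, a kinase of splicing factors, had 0.51, 0.76, 0.58 and 0.92, and Ccnl2, a cyclin found in nuclear speckles, 0.59, 0.65, 0.36 and 0.62. Host genes of small nucleolar RNAs had 0.32, 0.51, 0.26 and 0.44, with 0 of 7 called and 3 higher by the interval (42.9%, against the same share), Gas5 (0.33, 0.54, 0.16 and 0.39) among them. Srrm2 itself stood at 397, 719, 229 and 362 CPM in members and 387, 533, 238 and 356 CPM in kept cells. Its members thus kept the order of the libraries, and its log2 ratios were 0.04, 0.43, -0.06 and 0.03.

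Genes of the p53 response were uneven. Trp53inp1, a p53-induced regulator of cell death, had log2 ratios of 1.47, 0.89, 1.19 and 0.71, and Mdm2, the ubiquitin ligase that degrades p53, stood at 95.6, 81.0, 101 and 84.4 CPM in members and 33.7, 52.0, 49.3 and 47.7 CPM in kept cells. Both were called, of 10 tested (against 1.03% of all tested genes). The summed list had 0.47, -0.06, 0.15 and 0.00, whereas the median ratio of the 10 tested genes was 1.06, 0.19, 0.25 and 0.29. Cdkn1a, the cell cycle inhibitor, had 1.14, -0.69, -0.10 and -0.52. Immediate early genes had 0.40, 0.12, -0.06 and -0.05, with 0 of 6 tested genes called and 16 on the list. The integrated stress response had 0.06, 0.33, -0.09 and 0.19, with 0 of 5 tested genes called and 9 on the list. The untested genes had too few expected counts. Of these, Jun had 2.79, 1.99, 0.70 and 0.79 and Ddit3 1.03, 1.49, 0.66 and 1.22, both higher in every library. Fos, also untested, had 0.83, -0.93, 0.84 and 0.45. Heat shock genes had -0.20, -0.20, -0.22 and -0.24, with 4 of 6 lower by the interval (66.7%, against 3.14% of all tested genes).

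Members carried the RNA of embryonic stem cells. The 8 mESC identity genes stood at 6946, 5764, 6016 and 4605 CPM in members and 7835, 6159, 6492 and 5098 CPM in kept cells. These levels were lower in each library by 0.10 to 0.17 on the log2 scale and kept the libraries' order. Pou5f1, the core pluripotency factor, had log2 ratios between -0.19 and 0.00, and Sox2 between -0.10 and 0.16. Naive genes had summed ratios of 0.08, -0.06, -0.02 and -0.11, and formative genes -0.24, -0.20, -0.23 and -0.24. Dnmt3b, a DNA methyltransferase of the formative list, had -0.33, -0.25, -0.38 and -0.21.

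Markers of other cells had few UMIs in members. Erythroid genes had 0 UMIs in all libraries, which allows up to 2.06, 2.01, 1.38 and 1.81 CPM at 3 counts each. Lists for primitive endoderm, trophectoderm, primed or streak cells, fibroblasts and macrophages summed to between 2.01 and 23.4 CPM, from 3 to 34 UMIs a list and library. None of their genes had enough counts to be tested. The fibroblast list stood at 13.1, 9.38 and 14.8 CPM in members of libraries 1 to 3 and at 2.34, 5.44 and 12.1 CPM in kept cells. It was higher beyond the counting interval in library 1 (log2 ratio 2.48, 1.73 to 3.14, 19 UMIs) and lower in library 4 (-1.54, -3.42 to -0.18, 4 UMIs).

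Keratin and contractile genes, a list of intermediate filament and smooth muscle genes, differed as sums in members with a mitochondrial share under 1%. Few barcodes carried these sums. The list stood at 2707, 483, 2677 and 935 CPM in these members and at 173, 43.2, 737 and 205 CPM in members with a share of 3% to 10%. The former were higher as sums. In library 2 this rested on 1 barcode, which held 101 of the 107 UMIs of members under 1%, and without it they stood at 27.6 CPM, below those at 3% to 10%. Without the top such member of each, libraries 1, 3 and 4 stood at 2022, 1967 and 668 CPM. The median member of both classes held no UMI of the list. In members under 1%, 3, 1, 3 and 3 barcodes held 50% of its UMIs. Without the top 10 members of each class, those under 1% stood at 113, 0, 648 and 137 CPM. Members at 3% to 10% then stood at 10.5, 17.7, 278 and 110 CPM. They number 230, 435, 375 and 372, more than those under 1%, so 10 members are a smaller part of them. By depth, members under 1% with 2000 UMIs or more stood at 3098, 1185, 2394 and 1902 CPM, and those below 2000 UMIs at 1664, 22.4, 3265 and 222 CPM. The 140 shallower members of library 2 lay below those at 3% to 10%, and its deeper ones include the barcode above. Kept cells under 1% were higher as sums too, at 198, 192, 3411 and 1386 CPM against 65.6, 59.2, 642 and 271 CPM. In library 1 they stood at 63.1 CPM without the top cell. Without the top 10 cells of each class, kept cells under 1% stood at 4.79, 7.40, 218 and 456 CPM. Kept cells at 3% to 10% then stood at 43.4, 43.1, 578 and 233 CPM, higher in libraries 1 to 3. Kept cells under 1% number 44, 89, 58 and 168, and those at 3% to 10% number 7794, 6942, 6915 and 4864. Leaving out 10 cells took a far larger part of the smaller classes, so this order does not compare them. The mESC identity genes were lower as sums in members under 1%, at 3836, 5628, 3199 and 4532 CPM, against 7570, 5824, 6306 and 4701 CPM in members at 3% to 10%.

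Over all members, whatever their mitochondrial share, the keratin and contractile list stood at 538, 109, 988 and 349 CPM against 76.3, 64.8, 990 and 350 CPM in kept cells, so the interval of the ratio was clear of 1 in libraries 1 and 2 and not in libraries 3 and 4. Few barcodes carried these sums. In library 2 the same member held 101 of all 163 UMIs of the list, and without it the members stood at 41.6 CPM. In library 1, 10 members held 687 of 782 UMIs, and without them the level was 67.4 CPM. Both levels lay below those of all kept cells, from which no cell had been left out. When kept cells of library 1 also lost their top 10, their level fell to 55.0 CPM, so the members lay above them. In library 2, kept cells without their top cell had 61.5 CPM, so the members stayed below. Leaving out the top members lowers a level by construction, and this was done after seeing the data. The same number left out is a larger part of the members, 389 against 8118 kept cells in library 1 and 781 against 8514 in library 2. The trimmed levels of the classes are therefore not matched. Acta2, smooth muscle actin, was the only gene called of 3 tested (33.3%, against 1.03% of all tested genes), with log2 ratios of 2.56, 3.50, 0.69 and 1.25, and 2 of 3 were higher by the interval (66.7%, against 3.95%). Acta2 stood at 4.32 and 2.90 CPM in kept cells of libraries 1 and 2, so only its level in members brought it over the count limit there. Its call and these shares therefore say nothing about the list. Krt8, an epithelial keratin, had 2.76, -0.26, -0.46 and 0.02.

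Between single members, the counts of Malat1 and of some gene lists varied further beyond counting error than between kept cells. At 1000 UMIs the variance of a list's count over barcodes was divided by the binomial variance at the same mean, so that 1 is what counting alone gives. At an equal relative spread of shares this ratio rises with the mean count. It is therefore not matched between lists, or between classes of unlike mean. Malat1 had ratios of 19.4, 30.2, 39.0 and 42.2 in members and 3.06, 3.28, 3.68 and 4.61 in kept cells. Ribosomal protein genes had 18.4, 20.3, 20.8 and 34.5 against 4.73, 6.58, 7.04 and 8.02, and housekeeping genes 3.40, 5.11, 3.14 and 5.36 against 1.41 to 1.47. For the rRNA-like genes, members had 26.5, 49.0, 11.9 and 15.6. Members were above kept cells of their library for each of these, also at 500 and 2000 UMIs. At 1000 UMIs, mean counts of Malat1 and the rRNA-like genes were higher in members, and those of ribosomal protein and housekeeping genes lower.

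G2/M genes showed no such order of the classes in all libraries. They had ratios of 1.85, 1.41, 1.62 and 1.23 in members and 1.84, 1.37, 1.74 and 1.39 in kept cells, so members were higher in libraries 1 and 2 by at most 0.05. In members with 1000 to 2000 UMIs the ratios were 0.796, 1.22, 1.51 and 1.11, and in those with 2000 UMIs or more they were 2.17, 1.61, 1.64 and 1.37, of which libraries 1 and 2 lay above kept cells. At 2000 UMIs library 4 lay above as well (1.95 against 1.74). S-phase genes had 1.18, 1.30, 1.24 and 1.27 against 1.09, 1.12, 1.12 and 1.14, but at 500 UMIs members lay below kept cells in libraries 1 (1.01 against 1.05) and 4 (0.987 against 1.10). Histone genes had 2.77, 2.41, 2.12 and 3.55 against 1.31, 1.64, 1.62 and 2.25, but at 2000 UMIs members lay below kept cells in library 3 (2.06 against 2.27). Keratin and contractile genes were above kept cells in libraries 1, 2 and 4 (10.1 against 5.42 in library 2) and below them in library 3 (12.9 against 14.0). In library 1 their mean count was 0.697 in members and 0.0583 in kept cells, so the ratios there are not matched for level.

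**Figure D5:**
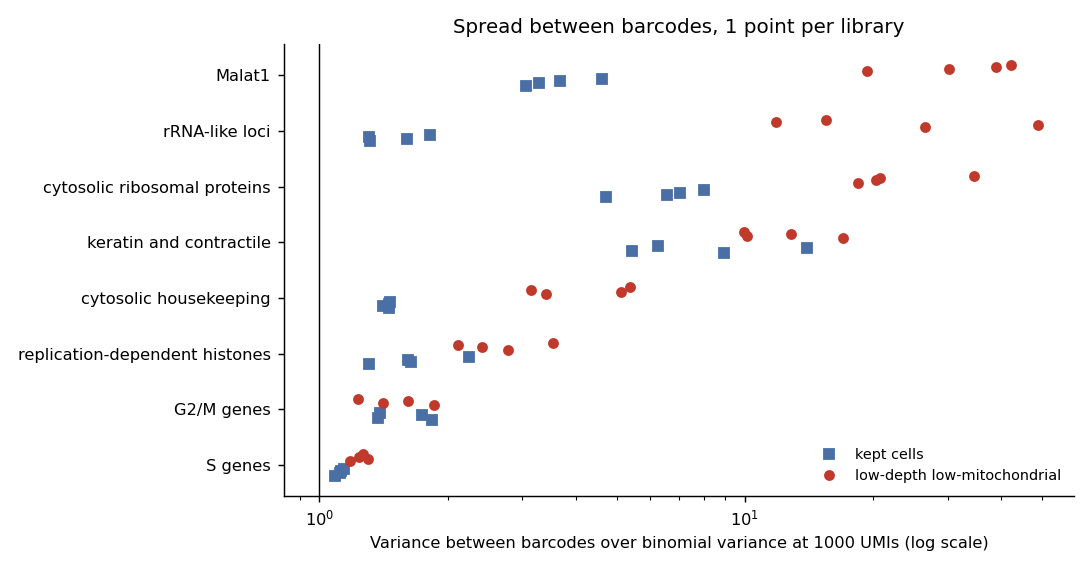
Variance between barcodes over the binomial variance after thinning to 1000 UMIs (log axis), 1 point per library for low-depth low-mitochondrial barcodes and kept cells, offset vertically only to be seen, with a line at 1. Malat1 lies at 19.4 to 42.2 in members and 3.06 to 4.61 in kept cells, while the G2/M genes of both classes lie between 1.23 and 1.85. The ratio also rises with the mean count, which differs between lists and classes.

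Detected genes at equal depth differed little in the middle and more at the edges. Thinned to 1000 UMIs, members had medians of 597, 652.5, 597 and 637 genes and kept cells 591, 630, 606 and 629. Thinned to 500 UMIs the medians were 350, 363, 355 and 362 against 348, 368, 356 and 367, so members of libraries 2 and 4 lay above kept cells at 1000 UMIs and below them at 500. In library 1 the central 90% of members reached from 525 to 676 genes, and that of kept cells from 545 to 640. Unthinned medians were 1493, 766, 1487 and 814 genes in members and 4066, 4601, 4213 and 4563 in kept cells.

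Each barcode was thinned to 500 UMIs and given to the library whose kept cells made its counts most likely over 5593 genes. Kept cells went to their own library in 88.1%, 78.4%, 53.4% and 77.7% of cases, and members in 62.9%, 78.6%, 48.9% and 75.9%. By this measure alone, members of libraries 2 and 4 lay within 2 percentage points of their kept cells, although more genes were 1.5-fold higher there (811 and 745) than in libraries 1 and 3 (368 and 161). Members of libraries 1 and 3 were given to library 2 in 18.0% and 18.4% of cases, against 1.97% and 5.06% of their kept cells. They were given to library 4 in 1.61% and 6.69%.

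The 39 members chosen by detected genes alone were the ones with few genes for their depth, and each library held few of them (5, 2, 20 and 12). Their median depth was 7589 UMIs. Malat1 stood at 1656, 2633, 1707 and 2728 CPM and ribosomal proteins at 34.6%, 33.0%, 35.7% and 37.7% of UMIs. Malat1 was lower and ribosomal proteins were higher than in kept cells. A choice by few genes at a given depth favours barcodes whose UMIs lie in abundant genes, such as those of ribosomal proteins. The make-up of these 39 members is therefore a description only. Their G2/M genes stood at 1383, 1281, 2000 and 1215 CPM.

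Rare members expressed genes of the two-cell-like state, in which mESC briefly switch on genes of the early embryo such as the Zscan4 family. At least 3 UMIs of the list were found in 12 members, 4 of library 1 and 8 of library 3, or 0.457% (exact interval 0.237% to 0.798%). In kept cells 32 barcodes (0.100%, 0.068% to 0.141%) did so, and they came from all libraries. Libraries 2 and 4 held none among 781 and 840 members. The 12 members had a median of 5127.5 UMIs, against medians of 1235 and 1357 over the members of libraries 2 and 4. The part of depth in this was not tested. Of the 39 members chosen by detected genes alone, 3 carried 36 UMIs of the list.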

How the data were processed

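Single-cell 3′ libraries (10x Genomics v3) of 4 samples were processed by the authors with Cell Ranger 6.1.2 on mm10 and joined by its aggregation step, which subsamples reads to even out depth. The deposited values are raw UMI counts of 32285 genes in 41142 barcodes, 744302782 UMIs in all, before the study's own cell filter. Library numbers match no labelled sample, so libraries were not treated as replicates and no SD or p was computed.

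Members and kept cells were chosen by the limits given above. CPM were taken from summed counts, so deep barcodes weigh most. Genes with an expected members' count of at least 20 in every library were tested, and mt- genes left out. The expected count was the mean of the CPM of members and kept cells, times the members' UMIs. Some higher genes, Mreg and Acta2 among them, were thus tested only through their level in members. Ratios have exact conditional, shares exact binomial 95% intervals. Members held 1454173, 1492952, 2167278 and 1658580 UMIs in libraries 1 to 4, and 3 counts equal 2.06, 2.01, 1.38 and 1.81 CPM. Genes were named from the 15 called highest by their smallest ratio over libraries, the 15 lowest tested (none was called lower), Srrm2 and the most abundant genes of each list. Called or exemplary list genes beyond these were chosen after their values were seen. Members and lists were chosen with earlier results of these data known. Genes were annotated with GENCODE on GRCm38, the build of the files, and all 6021 matched. No doublet caller was run. Scripts used Python 3.11.15, numpy 2.4.6 and scipy 1.17.1 and were checked on simulated counts.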

Additional observations from a re-analysis of the deposited data

How the results depend on the processing

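For the main counts and both leading lists, 31 values stayed close to those reported, 48 moved and none turned direction. Members numbered 1612 with a mitochondrial limit of 5%. Higher genes numbered 31 with that limit, 39 when both depth limits had to be missed, 4 at 2-fold, 7 with at least 100 expected counts, 164 with at least 5, 189 with the mean over barcodes, 31 against the 25% of kept cells with the fewest UMIs, 33 in members under 2000 UMIs and 18 at or above. Without 1 library they ranged from 65 to 151, with 141 without library 1 and 151 without library 3. Fewer libraries make the rule easier to meet. The set of tested genes also changes with the count limit and with the barcodes left out. These counts are thus not matched for the number tested, and no shares are given for them. Lower genes numbered 1 with median-ratio size factors, 1 with the mean over barcodes, 4 in members under 2000 UMIs and 0 to 3 without 1 library. Alternatives chosen after seeing the data gave 238 higher and 189 lower genes by the interval and 37 higher genes without members under 1% mitochondrial share.

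The median log2 ratio over libraries was 1.25 for nuclear long noncoding RNA and 2.69 for the rRNA-like genes. These became 1.53 and 3.30 with limits on log10 values, 1.40 and 3.19 with the 5% limit, 1.30 and 2.90 with both limits, 1.51 and 3.52 with the mean over barcodes, 1.98 and 4.15 under 2000 UMIs, 1.09 and 1.99 at or above, 1.17 and 2.53 without members under 1% mitochondrial share, and 1.33 and 2.74 without members chosen by detected genes alone. Leaving out the 1 member of each library with the most UMIs of the list, a choice made after seeing the data that lowers a ratio by construction, gave 1.22 and 2.64, and leaving out 10 gave 1.08 and 2.49. Against the 25% of kept cells with the fewest UMIs the rRNA-like median was 2.22. Without 1 library the ranges were 0.87 to 1.64 and 2.30 to 3.09. Medians of lists near 0 crossed it between alternatives, from -0.36 to 0.19 for G2/M genes and from -1.14 to 0.93 for keratin and contractile genes. Causes of these shifts were not tested, apart from the smaller number of genes tested where barcodes were left out. No paired analysis was possible because the libraries are tied to no replicate number of the labels, so WT and Srrm2 hKO samples could not be paired. Members and kept cells were compared within each library, and a test over the 4 libraries as pairs was left out by choice, because members were chosen by their own counts.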
